A study of Mus musculus with 28 samples.

Results

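The genes described here are 9 markers of the cerebral vasculature, listed by name: Flt1, Kdr, Cldn5, Pecam1, Slco1a4, Abcb1a, Mfsd2a and Vwf as genes of brain endothelial cells and Pdgfrb as a gene of pericytes. They are 9 of 53342 gene identifiers listed in each count table of the study, and all 9 were found by symbol. RNA-Seq was performed on the whole cerebral cortex at P17 and at P24 (4 cKO and 4 Ctrl mice at each age), and translating ribosome affinity purification (TRAP-Seq) at P24, where the cortex of each of 3 cKO and 3 Ctrl mice gave an Input and an IP library.

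The cKO mice, conditional knockouts, carried mGFAP-Cre and were loxP/loxP at the targeted gene, so that Cre recombinase was under the murine GFAP promoter, which is active in astrocytes. Whether Cre was also active in cells of the vessel wall was not tested here. The control (Ctrl) mice of the bulk experiments were littermates of the same sex and were loxP/loxP or loxP/+ at that gene, given without the driver. In TRAP-Seq, EGFP/Rpl10a, a ribosomal protein fused to a fluorescent tag, was expressed where mGFAP-Cre was active, in both genotypes, and the precipitate pulled down with antibodies to GFP (IP) was compared with a small part of the same lysate set aside before the precipitation (Input). The paper also lists the TRAP-Seq Ctrl mice as loxP/loxP or loxP/+, and does not state whether they carried the driver. Expression of the tag implies that they did, unlike the bulk Ctrl mice. With the driver, loxP/loxP is the genotype given for cKO mice, and loxP/+ is that of the paper's conditional heterozygous mice. The exact genotype of the TRAP-Seq Ctrl mice is therefore not settled here.

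Brain endothelial cells line the capillaries and form the blood–brain barrier, with tight junctions that seal the space between cells, transporters that carry nutrients in and drugs out, and little vesicular transport. Pericytes are embedded in the capillary wall and depend on PDGF signaling through Pdgfrb, while astrocyte endfeet cover the outer surface of the vessel and supply Wnt ligands and growth factors. Flt1 and Kdr are the receptors VEGFR1 and VEGFR2 for vascular endothelial growth factor.

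The genes are spread over 6 chromosomes of GRCm38. Flt1 lies on chromosome 5 (147561604 to 147726011, minus strand) together with Kdr (75932827 to 75978458, minus) and Abcb1a (8660077 to 8748575, plus). Slco1a4 (141805440 to 141856199, minus) and Vwf (125546774 to 125686679, plus) lie on chromosome 6. Mfsd2a is on chromosome 4 (122946850 to 122961188, minus), Pecam1 on chromosome 11 (106654217 to 106750628, minus), Cldn5 on chromosome 16 (18776847 to 18778262, plus) and Pdgfrb on chromosome 18 (61045150 to 61085061, plus). All are protein-coding, with exonic lengths between 1416 bases for Cldn5 and 16064 bases for Vwf. Counts of Abcb1a are uncertain, because it shares 553 exonic bases with Gm42686 on the opposite strand, the strand setting of the counting is not given in the sources used here, and Abcb1b is a near copy. Slco1a4 also belongs to a cluster of similar genes, so its reads could be split among them.

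RefSeq promoter sequence was at hand for 6 of the 9 genes. The 250 bases upstream of the start are shown for 3 of them, because the results below part Mfsd2a from the other endothelial genes, of which Flt1 and Cldn5 serve as examples. Capitals mark GGAA, the core bound by ETS factors that act in endothelial cells, read on both strands (GGAA or TTCC), on GRCm38.p6:

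Mfsd2a, chr4:122961189-122961438, minus strand: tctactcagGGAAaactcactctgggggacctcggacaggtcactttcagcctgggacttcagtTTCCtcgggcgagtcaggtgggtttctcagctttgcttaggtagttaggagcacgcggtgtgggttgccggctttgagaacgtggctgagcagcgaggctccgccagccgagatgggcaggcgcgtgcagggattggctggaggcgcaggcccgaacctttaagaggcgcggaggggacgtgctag
Flt1, chr5:147726012-147726261, minus strand: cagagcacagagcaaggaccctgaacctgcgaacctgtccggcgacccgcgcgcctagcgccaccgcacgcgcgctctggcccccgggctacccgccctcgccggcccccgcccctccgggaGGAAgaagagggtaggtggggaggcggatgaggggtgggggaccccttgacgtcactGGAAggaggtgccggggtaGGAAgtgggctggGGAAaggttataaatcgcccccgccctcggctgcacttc
Cldn5, chr16:18776597-18776846, plus strand: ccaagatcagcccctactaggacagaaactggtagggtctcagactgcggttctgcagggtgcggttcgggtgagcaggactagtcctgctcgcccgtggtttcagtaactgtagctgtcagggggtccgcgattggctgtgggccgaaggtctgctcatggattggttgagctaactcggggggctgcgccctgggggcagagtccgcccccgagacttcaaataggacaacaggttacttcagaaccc

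The core occurred 2 times in the Mfsd2a window, 4 times in that of Flt1 and not in that of Cldn5. It is a frequent match: 93.4% of all 32851 upstream windows of this length held it, with a median of 3 matches, so that these letters do not set the genes apart. The 6-letter element CTTTGA of LEF/TCF factors, which act in Wnt signaling, occurred 1 time in the Mfsd2a window and not in those of Flt1 and Cldn5. Of the windows not shown, that of Abcb1a held it 2 times and those of Kdr and Slco1a4 did not. The Abcb1a window belongs to a RefSeq start that lies 92986 bases from the gene start given above. It was present in 13.8% of all windows, and whether it sets Mfsd2a apart from the other endothelial genes was not tested. A match is a description of the letters and not a measured site.

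Bulk libraries held 8855488 to 14575306 counts on genes and TRAP-Seq libraries 18433087 to 27242445, and values are given as CPM, counts relative to library size scaled by TMM factors. A floor of 3 counts came to 0.206–0.339 CPM in bulk and 0.110–0.163 CPM in TRAP-Seq libraries, for counting error only. Gfap, a gene that rises in reactive astrocytes, went from 142 ± 12.3 to 805 ± 137 CPM at P24 (SD, n = 4 each). Both replicate 1 libraries of P24 bulk stood apart, with summed choroid plexus markers of 11.8 CPM in Ctrl and 5.24 CPM in cKO where the other 6 libraries had 70.2 to 406 CPM. The Input library of cKO replicate 1 had 766 CPM of red blood cell markers, against 144 to 261 CPM in the other 5 Input libraries.

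In Ctrl cortex at P24 all 9 genes were well above the floor, and the lowest in CPM, Kdr, had 158 to 193 counts in each library. Per kilobase of exon, which allows levels of different genes to be compared, Cldn5 (claudin-5, the chief sealing protein of endothelial tight junctions) had 11.7 ± 1.32 CPM per kb and Mfsd2a (a lysophospholipid transporter that restrains vesicular transport) 11.2 ± 1.10 CPM per kb (SD, n = 4). These neighbours overlapped in their ranges, and both lay above every other gene. A middle group followed with Abcb1a (P-glycoprotein, a drug efflux pump) at 4.51 ± 0.66 CPM per kb, Pdgfrb at 4.30 ± 0.33, Slco1a4 (the organic anion transporter OATP1A4) at 4.28 ± 0.78 and Flt1 at 3.49 ± 0.26. Each of these 4 overlapped with its neighbour in the order. Pecam1 (an adhesion molecule of endothelial cell contacts) at 2.13 ± 0.20 CPM per kb, Vwf (von Willebrand factor, a clotting protein stored in endothelial cells) at 1.73 ± 0.17 and Kdr at 1.45 ± 0.13 were lowest, did not reach the range of Flt1, and overlapped with their neighbours.

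At P17 the order in Ctrl cortex was led again by Cldn5, at 20.6 ± 2.31 CPM per kb, and Mfsd2a, at 15.4 ± 0.80 CPM per kb, whose ranges no longer overlapped. Kdr had 2.60 ± 0.32 CPM per kb, level with Pecam1 at 2.57 ± 0.24, and Vwf was lowest at 2.15 ± 0.38. The ratio of the P17 mean to the P24 mean in Ctrl mice was 1.79 for Kdr, 1.76 for Cldn5 and 1.37 for Mfsd2a, and lay between 0.90 and 1.25 for the other 6 genes. The ages were sequenced as separate experiments, so age and experiment cannot be told apart and no test was made.

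The comparison of cKO with Ctrl cortex asked whether the deletion directed to astrocytes was accompanied by a change in transcripts of the vessel wall. At P24, none of the 9 genes passed the threshold (edgeR quasi-likelihood test, Benjamini–Hochberg adjusted p under 0.05), where 1.72% of all 22495 genes tested did. DESeq2 also called none of the 9. At an unadjusted p under 0.05 there was 1 gene of the 9, against 13.1% of all genes. The log2 fold changes lay between −0.14 and 0.25 with a median of 0.04 (all genes: 0.00054), standard errors were 0.0722–0.138, and cKO and Ctrl values overlapped for each gene, whereas they did not in 7.67% of all genes. In bulk tissue, fewer cells of a type and less RNA per cell cannot be told apart.

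Among the receptors, Flt1 had 47.6, 51.1, 47.2 and 42.7 CPM in the P24 Ctrl libraries and 40.2, 43.1, 49.8 and 43.2 CPM in the cKO libraries. The cKO values were lower on average, with 1 cKO library below the Ctrl range and the other 3 inside it (log2 fold change −0.10, SE 0.0754, adjusted p = 0.644). Kdr was at 11.6, 14.2, 12.9 and 13.8 CPM in Ctrl and 11.02, 14.8, 15.3 and 12.8 CPM in cKO mice, 0.04 apart on the log2 scale (SE 0.111, adjusted p = 0.931). Pdgfrb, the receptor of pericytes, had 21.8, 24.6, 25.6 and 22.3 CPM in Ctrl and 20.5, 26.2, 27.4 and 22.7 CPM in cKO mice. Its cKO values reached beyond the Ctrl values at both ends (log2 fold change 0.04, SE 0.0923, adjusted p = 0.919).

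Of the junction and adhesion genes, Cldn5 had 14.1, 16.4, 18.6 and 17.4 CPM in Ctrl and 12.7, 18.7, 16.6 and 16.3 CPM in cKO mice at P24 (log2 fold change −0.05, SE 0.116, adjusted p = 0.912). Pecam1 gave the lowest estimate of the 9, with 14.7, 13.2, 13.5 and 11.7 CPM in Ctrl and 10.5, 13.9, 12.3 and 11.7 CPM in cKO mice (−0.14, SE 0.102, adjusted p = 0.636). In neither gene did the genotypes separate. Vwf lay at 24.9 to 31.5 CPM in Ctrl, and all 4 cKO values, 26.9 to 30.1 CPM, were within that range (0.05, SE 0.0722, adjusted p = 0.834).

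Of the transporters, Mfsd2a had the highest estimate at P24. It was at 28.5, 25.4, 24.01 and 22.7 CPM in Ctrl and 33.9, 27.1, 32.9 and 25.4 CPM in cKO mice. Only 2 of the cKO libraries were above all Ctrl libraries, and the difference did not pass the threshold (log2 fold change 0.25, SE 0.0994, adjusted p = 0.303). Slco1a4 had 34.4, 27.4, 23.5 and 24.3 CPM in Ctrl and 37.7, 26.6, 28.2 and 25.5 CPM in cKO mice (0.11, SE 0.138, adjusted p = 0.807). Abcb1a had 30.0, 24.1, 22.9 and 21.8 CPM in Ctrl and 30.4, 23.2, 24.7 and 23.2 CPM in cKO mice (0.04, SE 0.111, adjusted p = 0.923). For Slco1a4 and Abcb1a the high values were those of replicate 1 in either genotype, the libraries that were low in choroid plexus markers. Mfsd2a was also highest in replicate 1 of either genotype, with cKO replicate 3 close to it. With both replicate 1 libraries left out, none of the 9 genes passed, while the count of all genes called went from 388 to 694.

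**Figure D1:**
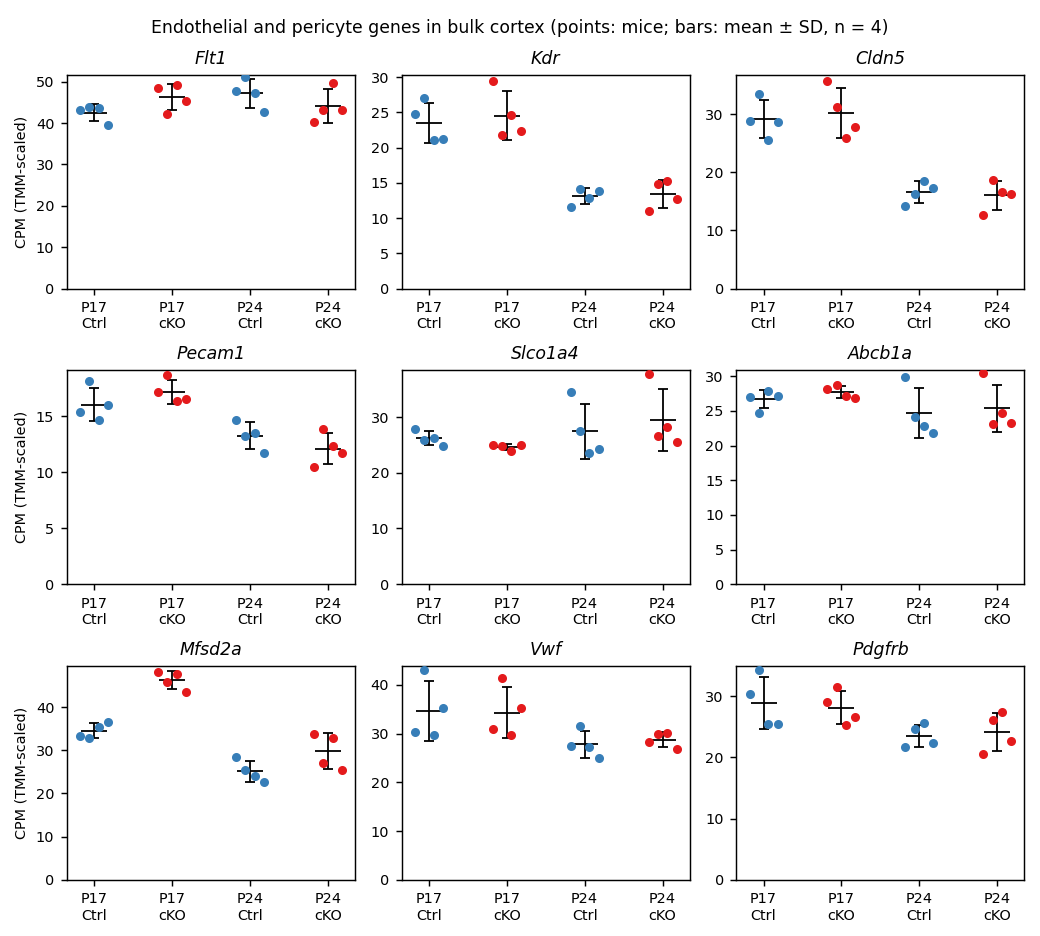
CPM (TMM-scaled, axis from 0) of the 9 genes in bulk cortex at P17 and P24, each point 1 mouse, with the mean and SD of 4 mice per group. Mfsd2a at P17 is the panel in which the cKO points, 43.6 to 48.2 CPM, lie apart from the Ctrl points, 32.9 to 36.7 CPM.

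At P17, Mfsd2a passed the threshold. It was higher in cKO mice and was 1 of the 9 genes, against 0.0943% of all 21201 genes tested (0.066% called higher). Its values were 33.3, 32.9, 35.5 and 36.7 CPM in Ctrl and 48.2, 45.7, 47.7 and 43.6 CPM in cKO mice, so that all 4 cKO libraries were above all 4 Ctrl libraries. The groups did not overlap, in either direction, in 2.83% of all genes. The log2 fold change was 0.42 (SE 0.0574, adjusted p = 0.0132). With the replicate number as a block, a pairing that the P17 labels do not state, all genes called went from 20 to 109. The 9 genes still gave 1 call. The call of Mfsd2a was lost in the fit of all 16 bulk libraries (adjusted p = 0.0856) and when any of 5 of the 8 libraries was left out: Ctrl replicate 2 (adjusted p = 0.0944) or 3 (0.104), or cKO replicate 1 (0.0583), 2 (0.0526) or 3 (0.12). The log2 fold change stayed between 0.40 and 0.45 throughout these 8 fits.

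The other 8 genes did not pass at P17, each with an adjusted p of 1.0 by the edgeR test. Flt1 had 43.1, 43.8, 43.7 and 39.5 CPM in Ctrl and 48.4, 42.3, 49.2 and 45.2 CPM in cKO mice. Although 3 of the cKO libraries were above the Ctrl range, the fourth was not (log2 fold change 0.12, SE 0.0629). Slco1a4 was at 27.9, 26.0, 26.2 and 24.8 CPM in Ctrl and 25.0, 24.9, 23.9 and 25.0 CPM in cKO mice (−0.09, SE 0.0628). Abcb1a had 24.8 to 27.9 CPM in Ctrl and 26.9 to 28.8 CPM in cKO mice (0.06, SE 0.0628). Kdr ranged from 21.1 to 27.0 CPM in Ctrl and from 21.7 to 29.4 CPM in cKO mice (0.06, SE 0.11), and Cldn5 from 25.6 to 33.5 and from 25.9 to 35.7 CPM (0.05, SE 0.105). Pecam1 (0.10, SE 0.0885), Vwf (−0.01, SE 0.127) and Pdgfrb (−0.04, SE 0.104) also overlapped between the genotypes.

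Whether the cKO effect differed between the ages was tested as an interaction in the 16 bulk libraries. None of the 9 genes passed, where 0.047% of all 23395 genes did; at an unadjusted p under 0.05 there was 1 gene of the 9 and 6.32% of all genes, and DESeq2 called none of the 9. The effect at P24 minus that at P17 was −0.18 for Mfsd2a (SE 0.121, adjusted p = 0.904) and −0.22 for Flt1 (SE 0.102, adjusted p = 0.766). The call of Mfsd2a at P17 and its absence at P24 were therefore not shown to differ. Age and sequencing experiment coincide in this term.

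The wider vascular lists were read in the same bulk tests, in which 0.0943% of all genes passed at P17 and 1.72% at P24. At P17 none of the 24 barrier junction and transporter genes, 35 endothelial identity genes, 19 pericyte and smooth muscle genes, 20 genes of VEGF, angiopoietin and PDGF signaling, 17 genes of the Wnt barrier pathway and 8 genes of activated or leaky endothelium that were tested passed. At P24, 1 of 24 barrier genes passed: Slco1c1, a thyroid hormone transporter of both endothelial cells and astrocytes, rose from 36.0 ± 4.84 to 53.3 ± 4.09 CPM (SD, n = 4 each, log2 fold change 0.56, SE 0.0899, adjusted p = 0.00687). In the Wnt barrier list 1 of 17 passed, Tnfrsf19, a Wnt target, which rose from 51.6 ± 3.07 to 77.4 ± 4.21 CPM (0.59, SE 0.0607, adjusted p = 0.000386). In the activated or leaky list 2 of 10 rose: Emp1, an epithelial membrane protein (2.05, SE 0.408, adjusted p = 0.0252), and Vcam1, an adhesion molecule for leukocytes that astrocytes also carry (0.81, SE 0.157, adjusted p = 0.022). Emp1 was also higher in the Ctrl IP than in the Input, as given at the end of the report. None of 36 endothelial identity genes, 19 pericyte and smooth muscle genes or 19 signaling genes passed. List medians lay between 0.02 and 0.08 at P17 and between −0.0013 and 0.11 at P24, beside −0.0038 and 0.00054 over all genes. The IP held Slco1c1, Tnfrsf19 and Vcam1 at over 60 CPM in every Ctrl mouse, as described below. Between the genotypes in the IP, Slco1c1 (0.253, adjusted p = 0.42), Tnfrsf19 (0.231, 0.447) and Vcam1 (0.319, 0.189) did not pass the edgeR test, whereas Emp1 did. The cells in which these genes rose in bulk cortex were not tested.

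The Input libraries of TRAP-Seq held far fewer counts of these genes than bulk cortex of the same age and genotype label, though both come from cortex of mice labelled Ctrl at P24. The ratio of the bulk mean to the Input mean was 35.1 for Flt1 (47.2 against 1.34 CPM), 32.9 for Abcb1a, 24.2 for Vwf, 18.4 for Kdr, 16.9 for Slco1a4, 12.6 for Cldn5 and 11.3 for Pecam1. It was 6.23 for Pdgfrb and 3.70 for Mfsd2a, the lowest of the 9. In all, 7 of the 9 genes were at least 10-fold lower in Input than in bulk, as were 2.72% of 21030 genes with at least 1 CPM in bulk, whose median ratio was 1.08. The median ratio was 0.95 over 8 neuron markers, 3.37 over 8 astrocyte markers, 4.99 over 35 endothelial identity genes and 6.03 over 18 pericyte and smooth muscle genes. These are values from different mice, extractions (Trizol on frozen cortex against detergent lysate cleared by centrifugation) and library kits, set side by side across tables normalized separately, with no test. The TRAP-Seq mice also differed in genotype, since they expressed EGFP/Rpl10a through mGFAP-Cre. These differences between the experiments cannot be told apart. At these levels, Input libraries had 6 to 56 counts each for the 7 genes other than Mfsd2a and Pdgfrb.

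The comparison of IP with Input asked which transcripts were on tagged ribosomes. In Ctrl mice, 8 of the 9 genes passed, where 71.0% of all 24385 genes did: 2 were higher in the IP (35.3% of all genes) and 6 were lower (35.7%). The 9 genes had a median log2 fold change of −0.89 (all genes: −0.03). In the same comparison 8 of 8 astrocyte markers were higher, with a median of 3.78, and 7 of 8 neuron markers were lower, with a median of −1.73. Blocking on the mouse, which pairs the IP and Input libraries, changed no call among the 9 genes.

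Mfsd2a, labelled an endothelial gene, went with the astrocyte markers in direction. It had 5.65, 8.34 and 6.42 CPM in the Ctrl Input and 37.3, 47.5 and 54.7 CPM in the IP of the same mice. Every IP library was above every Input library, and the IP mean was 6.83 times the Input mean (log2 fold change 2.77, SE 0.181, adjusted p = 8.1e-08). With 992 to 1401 counts per IP library, it was also the gene of the 9 with by far the deepest values there. Its level in the Ctrl IP, 20.7 ± 3.88 CPM per kb (SD, n = 3), compared with 1.40 ± 0.41 CPM per kb for Pdgfrb and 0.50 ± 0.03 CPM per kb for Cldn5, the next genes in the order, and no ranges overlapped. The cells that gave rise to these reads were not tested.

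Pdgfrb was the other gene that was higher in the IP. It had 3.96, 3.89 and 3.49 CPM in the Ctrl Input and 5.79, 7.06 and 10.1 CPM in the IP. The groups did not overlap, and the IP mean was 2.03 times the Input mean (log2 fold change 1.01, SE 0.215, adjusted p = 0.00122). Of the 15 pericyte and smooth muscle genes tested beside it, 3 were higher in the IP and 6 were lower, with a median of −0.46. The higher genes were the contractile genes Acta2 (2.47, SE 0.3, adjusted p = 1.4e-05), Myl9 (2.18, SE 0.194, adjusted p = 1.02e-06) and Tagln, and Vtn, a pericyte-enriched matrix protein, was lower (−1.42, SE 0.249, adjusted p = 0.000276).

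Of the other 7 endothelial genes, 6 passed as lower in the IP. Slco1a4 had 1.77, 1.45 and 1.64 CPM in the Input and 0.56, 0.57 and 0.43 CPM in the IP (log2 fold change −1.64, SE 0.279, adjusted p = 0.000215). Flt1 had 1.43, 1.72 and 0.87 CPM in the Input and 0.56, 0.68 and 0.43 CPM in the IP (−1.27, SE 0.346, adjusted p = 0.00587). Kdr went from 14, 14 and 15 counts in the Input to 6, 5 and 1 counts in the IP, with the last below the floor of 3 counts (−2.19, SE 0.492, adjusted p = 0.00171). For each of these 3 genes, every IP library was below every Input library.

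Vwf had 1.39, 1.33 and 0.72 CPM in the Input and 0.68, 0.26 and 0.43 CPM in the IP (log2 fold change −1.34, SE 0.404, adjusted p = 0.0106). This call was lost without IP replicate 2 (adjusted p = 0.0532) or without Input replicate 1 (0.0522). Cldn5 had 1.22, 1.501 and 1.23 CPM in the Input and 0.75, 0.72 and 0.66 CPM in the IP (−0.89, SE 0.273, adjusted p = 0.0114), and did not pass by DESeq2 (adjusted p = 0.0622) or without Input replicate 2 (0.0502). Pecam1 had 1.05, 1.28 and 1.18 CPM in the Input and 0.75, 0.75 and 0.59 CPM in the IP (−0.75, SE 0.285, adjusted p = 0.033), and lost its call whichever of the 6 libraries was left out (adjusted p = 0.0524–0.117), by DESeq2 (0.139), without the filter (0.117), with library size alone (0.057) and in the fit of all 12 libraries (0.0905). Abcb1a, at 0.55, 0.83 and 0.87 CPM in the Input and 0.26, 0.60 and 0.43 CPM in the IP, overlapped and did not pass (−0.79, SE 0.394, adjusted p = 0.0939).

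**Figure D2:**
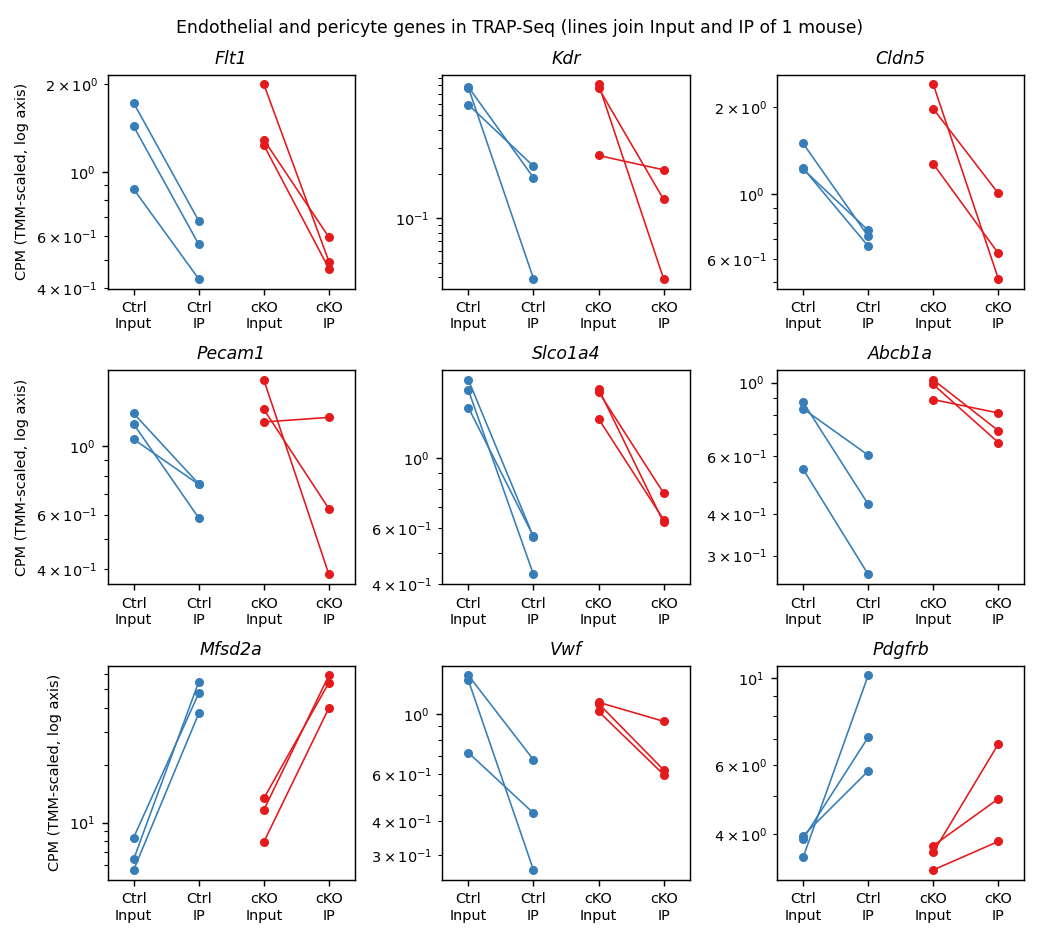
CPM (TMM-scaled, log axis, a scale of its own in each panel) of the 9 genes in the TRAP-Seq Input and IP, each point 1 library, with lines joining the libraries of 1 mouse. In Ctrl mice the lines rise for Mfsd2a and Pdgfrb and fall for the other 7 genes.

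In cKO mice, 8 of the 9 genes were tested for IP against Input, since Kdr, with 5, 3 and 1 counts in the IP, did not pass the filter on low counts. Of these, 4 passed, where 56.3% of all 24011 genes did: 1 was higher (27.8% of all genes) and 3 were lower (28.5%). Mfsd2a was at 7.91, 13.4 and 11.6 CPM in the Input and 39.9, 54.1 and 59.1 CPM in the IP (log2 fold change 2.20, SE 0.246, adjusted p = 0.000113). Flt1 had 1.29, 2.00 and 1.24 CPM in the Input and 0.60, 0.49 and 0.47 CPM in the IP (−1.55, SE 0.338, adjusted p = 0.00432). Cldn5 (−1.39, SE 0.365, adjusted p = 0.0106, and 0.0513 without IP replicate 1) and Slco1a4 (−1.19, SE 0.289, adjusted p = 0.00741) were lower as well. Blocking on the mouse left 4 calls among the 9 genes.

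Pdgfrb in the cKO mice was at 3.24, 3.74 and 3.598 CPM in the Input and 3.83, 4.92 and 6.79 CPM in the IP, without overlap, and did not pass (0.54, SE 0.251, adjusted p = 0.0956). It passed when IP replicate 1 was left out (adjusted p = 0.0405). Pecam1 had 1.64, 1.32 and 1.20 CPM in the Input and 0.38, 0.63 and 1.24 CPM in the IP (−0.88, SE 0.422, adjusted p = 0.106), and passed in the fit of all 12 libraries (adjusted p = 0.0469) and without IP replicate 3 (−1.45, adjusted p = 0.0225), while the estimate was −0.54 without IP replicate 1. Vwf (−0.60, SE 0.316, adjusted p = 0.137) and Abcb1a (−0.42, SE 0.294, adjusted p = 0.247) did not pass. Without overlap between IP and Input were 7 of the 8 genes in cKO and 8 of the 9 in Ctrl mice, against 63.9% and 74.4% of all genes.

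The 2 comparisons were set against each other as an interaction of fraction and genotype. None of the 9 genes passed, where 0.0582% of all 25768 genes did, and none had an unadjusted p under 0.05, against 8.74% of all genes. DESeq2 also called none of the 9. The difference was −0.56 for Mfsd2a (SE 0.31, adjusted p = 0.65), −0.46 for Pdgfrb (SE 0.336, adjusted p = 0.781), 0.74 for Vwf (SE 0.523, adjusted p = 0.767) and 0.46 for Slco1a4 (SE 0.361, adjusted p = 0.804). With these standard errors, the calls made in Ctrl but not in cKO mice were not shown to differ.

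**Figure D3:**
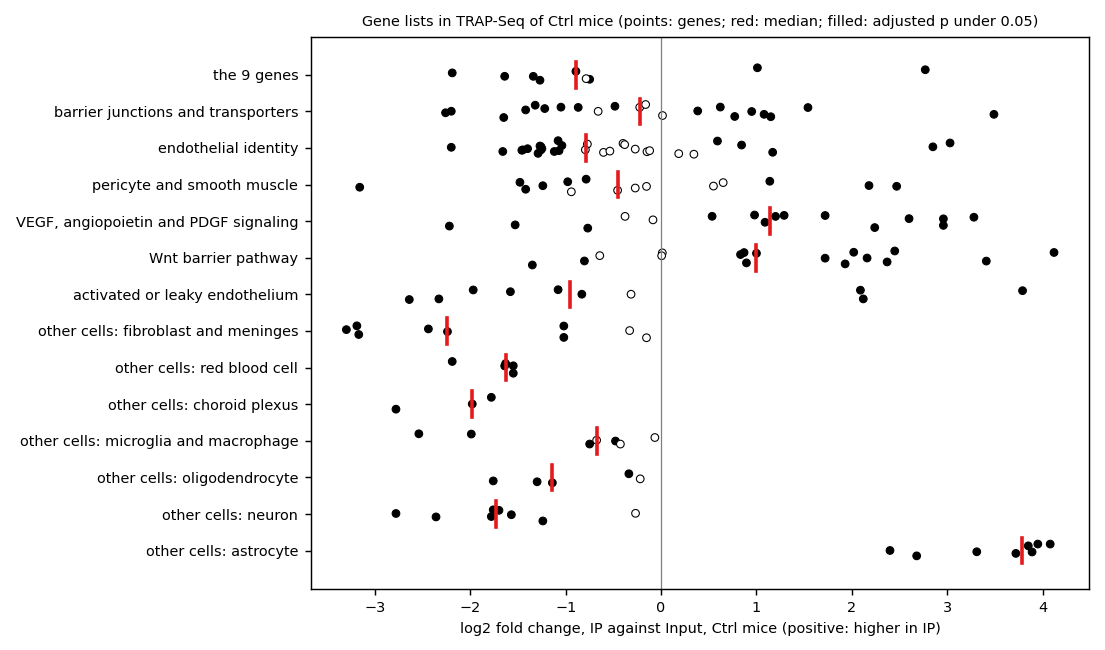
Log2 fold change of IP against Input in Ctrl mice (edgeR) for the genes of each list, each point a gene, filled where the adjusted p was under 0.05, with the list median in red. The 8 astrocyte markers all lie right of 0, and the 9 genes lie left of 0 except Mfsd2a and Pdgfrb.

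Within the IP, cKO was compared with Ctrl to ask which transcripts on tagged ribosomes differed between the genotypes. None of the 8 genes tested passed (Kdr, with 6, 5 and 1 counts in Ctrl and 5, 3 and 1 counts in cKO mice, was not tested), where 20.0% of all 23864 genes did. At an unadjusted p under 0.05 there was 1 gene of the 8, against 33.7% of all genes, and DESeq2 called none of them. Over all genes the split was 2772 higher and 2010 lower, and with library size alone as the scaling, which moved the median of all genes to −0.13, it was 2002 higher and 3529 lower.

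Mfsd2a was at 37.3, 47.5 and 54.7 CPM in the Ctrl IP and 39.9, 54.1 and 59.1 CPM in the cKO IP. The ranges overlapped broadly (log2 fold change 0.14, SE 0.166, adjusted p = 0.597). Pdgfrb had 5.79, 7.06 and 10.1 CPM in Ctrl and 3.83, 4.92 and 6.79 CPM in cKO mice. With 2 cKO libraries below the Ctrl range and the third inside it, the estimate was −0.55 (SE 0.244, adjusted p = 0.138). It passed without the filter (adjusted p = 0.0385), with the replicate block (0.0109) and without cKO replicate 3 (0.0481), in each case lower in cKO mice.

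Abcb1a had 7, 16 and 11 counts in the Ctrl IP (0.26, 0.60 and 0.43 CPM) and 19, 16 and 17 counts in the cKO IP (0.81, 0.72 and 0.66 CPM), without overlap, and did not pass (0.75, SE 0.375, adjusted p = 0.187). Slco1a4 was at 0.56, 0.57 and 0.43 CPM in Ctrl and 0.64, 0.63 and 0.78 CPM in cKO mice, also without overlap (0.40, SE 0.327, adjusted p = 0.439). They were 2 of the 8 genes, against 37.7% of all genes whose groups did not overlap. Vwf (0.65, SE 0.405, adjusted p = 0.294), Pecam1 (0.13, SE 0.414, adjusted p = 0.865), Flt1 (−0.10, SE 0.351, adjusted p = 0.878) and Cldn5 (0.03, SE 0.34, adjusted p = 0.967) overlapped between the genotypes, and Cldn5 turned to −0.08 with library size alone and −0.01 with the block. At 7 to 32 counts per library, differences of the size of the standard errors could not be detected for these genes.

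In the Input, none of the 9 genes passed between cKO and Ctrl, where 0.109% of all 23828 genes did. At an unadjusted p under 0.05 there was 1 gene, against 4.03% of all genes, and DESeq2 called none of the 9. Mfsd2a was at 5.65, 8.34 and 6.42 CPM in Ctrl and 7.91, 13.4 and 11.6 CPM in cKO mice (log2 fold change 0.70, SE 0.243, adjusted p = 0.812), with 2 cKO libraries above the Ctrl range. The summed level of 8 astrocyte markers in the same libraries was 1023 to 1226 CPM in Ctrl and 1572 to 1873 CPM in cKO mice. Of these markers, 6 had a log2 fold change above 0 and 1 was called higher. In bulk cortex the median of this sum was 5245 CPM in Ctrl and 5348 CPM in cKO mice at P17, and 4711 and 4075 CPM at P24. The part of these markers in the value of Mfsd2a was not tested. Cldn5 followed at 0.52 (SE 0.301), with 1.22, 1.501 and 1.23 CPM in Ctrl and 2.40, 1.28 and 1.98 CPM in cKO mice, of which the highest was the library rich in red blood cell markers. Pecam1 was also highest there among the cKO Inputs, at 1.64 CPM. The summed level of the 9 genes was lowest there, at 20.0 CPM against 26.3 and 24.2 CPM. Abcb1a was the 1 gene without overlap (0.37, SE 0.318), against 11.9% of all genes, and the other 6 genes lay between −0.19 and 0.25.

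**Figure D4:**
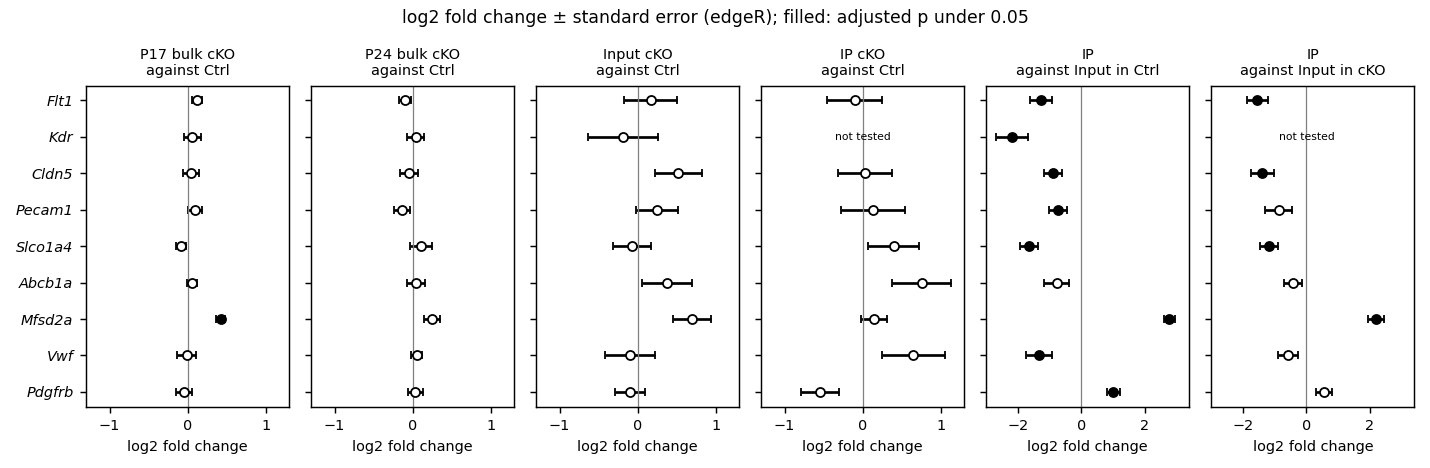
Log2 fold change with its standard error (edgeR) for the 9 genes in 6 comparisons, filled where the adjusted p was under 0.05; the scale is wider in both IP against Input panels. In the 4 comparisons of cKO with Ctrl only Mfsd2a at P17 is filled, at 0.42.

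The ligands of the receptors among the 9 genes were read in the same tests. They lie on a list of 21 genes of VEGF, angiopoietin and PDGF signaling, and were singled out after their values were seen. In the Ctrl IP against Input, 11 of 16 genes of the list tested were higher and 3 lower (35.3% and 35.7% of all genes), with a median of 1.14. Vegfa, Vegfb and Pgf, which bind Flt1, were higher by 1.29 (SE 0.116), 1.09 (SE 0.108) and 2.60 (SE 0.173) on the log2 scale, and Pdgfb, the ligand of Pdgfrb, was lower (−1.53, SE 0.177), each with an adjusted p under 0.05. By the rule for named genes the list was led by Pdgfd, a further PDGF (3.28, SE 0.345), Apln (apelin, 2.96, SE 0.167) and Angptl4 (2.96, SE 0.292). In the cKO IP against the Ctrl IP, 4 of 17 rose and 4 fell, where 20.0% of all genes passed in either direction. Angpt1, the ligand of the endothelial receptor Tie2, rose from 8.39 ± 0.57 to 14.5 ± 1.14 CPM (SD, n = 3 each, 0.79, SE 0.124, adjusted p = 0.00171), Unc5b rose (0.92, SE 0.223, adjusted p = 0.0149) and Angptl4 fell from 5.02 ± 1.49 to 1.77 ± 0.61 CPM (−1.48, SE 0.282, adjusted p = 0.00472). The other angiopoietin on the list, Angpt2, rose as well (2.03, SE 0.351, adjusted p = 0.00291), at a low mean log2 CPM of −0.462. Vegfb also rose (0.56, SE 0.106, adjusted p = 0.00457), while the estimates of Vegfa (0.19, SE 0.125), Pgf (0.23, SE 0.128) and Pdgfb (0.05, SE 0.154) did not pass. Pdgfd, also a ligand of Pdgfrb, fell from 4.80 ± 1.10 to 2.86 ± 0.38 CPM (SD, n = 3 each, −0.735, SE 0.208, adjusted p = 0.0294).

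In the Wnt barrier list, 12 of 17 genes were higher in the Ctrl IP than in the Input and 2 lower (35.3% and 35.7% of all genes), with a median of 1.00. They were led by Ndp (norrin, a ligand of Fzd4), at 57.2 ± 8.31 CPM in the IP and 3.27 ± 0.43 CPM in the Input (SD, n = 3 each, log2 fold change 4.12, SE 0.155, adjusted p = 1.71e-09), Tspan12, which takes part in norrin signaling (3.41, SE 0.154, adjusted p = 5.5e-09), and Tnfrsf19 (2.45, SE 0.149, adjusted p = 4.6e-08), at 66.1 to 95.6 CPM in the IP. In the cKO IP against the Ctrl IP 2 of 17 rose and 4 fell, beside 20.0% of all genes in either direction. Lrp5, a Wnt coreceptor (−0.91, SE 0.25, adjusted p = 0.0255), fell, and Nkd1, an inhibitor of the pathway, rose from 30.9 ± 0.65 to 46.3 ± 4.76 CPM (0.59, SE 0.104, adjusted p = 0.00319). The other gene that rose was Tspan12 (0.43, SE 0.0987, adjusted p = 0.0113), and Ndp was among those that fell (−0.37, SE 0.117, adjusted p = 0.048). Both a promoting and an inhibiting gene thus rose, and the activity of the pathway was not tested.

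The barrier and endothelial lists were divided between the fractions. Of 21 barrier junction and transporter genes tested in Ctrl mice, 8 were higher in the IP and 9 lower (35.3% and 35.7% of all genes), with a median of −0.22. Slco1c1 was at 63.9 to 112 CPM in the IP and 6.16 to 8.67 CPM in the Input (log2 fold change 3.49, SE 0.227, adjusted p = 7.98e-08), whereas Spock2, a proteoglycan (−2.26, SE 0.148), and Slc22a8, the organic anion transporter OAT3 (−2.20, SE 0.292), were lower. Of 30 endothelial identity genes 5 were higher and 14 lower, with a median of −0.78. Sox7, a transcription factor (3.03, SE 0.268), and Tm4sf1 (2.85, SE 0.21) were higher, and Cd34, a surface marker of endothelial and progenitor cells, went from 31.3 ± 4.46 CPM in the Input to 6.84 ± 0.71 CPM in the IP (−2.20, SE 0.135, adjusted p = 4.84e-08). Genes of the vascular lists with a mean of 10 CPM or more in the Ctrl IP included Slco1c1, Tm4sf1, Myl9 and Vcam1.

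Between the genotypes in the IP, 2 of 20 barrier genes rose and 2 fell, where 20.0% of all genes passed in either direction (the background of the next lists as well). Cd320, the receptor for vitamin B12 bound to transcobalamin, rose from 11.4 ± 1.80 to 23.0 ± 3.96 CPM (SD, n = 3 each, log2 fold change 1.02, SE 0.159, adjusted p = 0.00167). Slc16a1, the lactate transporter MCT1, rose from 19.2 ± 2.74 to 36.2 ± 4.91 CPM (0.92, SE 0.136, adjusted p = 0.00134), and Slc2a1, the glucose transporter GLUT1, fell from 32.7 ± 5.17 to 22.1 ± 4.87 CPM (−0.55, SE 0.169, adjusted p = 0.0398). Of 23 endothelial identity genes 2 rose, Ahnak (1.49, SE 0.248, adjusted p = 0.00239) and Eng (endoglin, 0.94, SE 0.217, adjusted p = 0.0118), and 2 fell, among them the taurine transporter Slc6a6 (−0.76, SE 0.18, adjusted p = 0.0131). Of 13 pericyte and smooth muscle genes 2 rose, Tagln (0.89, SE 0.161, adjusted p = 0.00362) and Rgs5, a regulator of G protein signaling in pericytes (0.88, SE 0.272, adjusted p = 0.0415). Vessel-wall markers in the IP were measured beside red blood cell markers, whose 5 genes had a median of 0.67 in this comparison with none called.

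The 9 genes did not vary as a unit between mice. Over the 16 bulk libraries, with log2 CPM centred on the mean of each group, the correlation of a gene with the mean of the other 8 was highest for Pecam1 (Pearson r = 0.643) and Pdgfrb (0.624), lower for Vwf (0.448), Flt1 (0.336), Kdr (0.294), Cldn5 (0.193) and Mfsd2a (0.103), and below 0 for Slco1a4 (−0.06) and Abcb1a (−0.11). The last pair were high in both P24 replicate 1 libraries, where Mfsd2a also had its highest P24 values (28.5 CPM in Ctrl and 33.9 CPM in cKO mice). Of 18473 genes ranked by their likeness to the mean of all 9, those most like it were Nynrin (r = 0.923), Gk5 (0.909), Rp2 (0.873), Dmrta2 (0.873), Zfp710 (0.826), Pigl (0.819), Ccdc40 (0.815), Arsg (0.812), Clec14a (0.81) and Mill2 (0.803). Of these 10, only Clec14a, an endothelial surface protein, was on a wider vascular list, and of the first 100 there were 2, where 0.612% of the ranked genes were on such lists. The points share their libraries, so the values are descriptions with n = 16 libraries and no test.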

How the data were processed

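RNA was sequenced from mouse cerebral cortex in 28 libraries, 16 of bulk cortex (1 mouse each) and 12 of TRAP-Seq. The authors aligned the reads to MM10 using RNA STAR on Galaxy, and the deposited values are raw counts per Ensembl gene, 1 table per experiment. The counting tool, strand setting, annotation and versions are not given in the sources used here. Symbols, positions and exonic lengths came from GENCODE vM21 (53237 of 53342 identifiers).

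Comparisons used edgeR 4.0.16 in R 4.3.3 (TMM factors, filterByExpr with a minimum count of 10 and a minimum total of 15, two-sided quasi-likelihood test), and p-values were adjusted by Benjamini–Hochberg over all genes tested. A fit held only the groups compared. Code was tested on simulated data. Alternatives were DESeq2 1.42.0, RLE factors, library size alone, no filter, a replicate block, all libraries of an experiment in 1 fit, each library left out in turn, and, chosen after seeing the data, both P24 replicate 1 libraries left out.

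Numbers pair the libraries of IP and Input, which come from the same mouse. For P17 bulk the labels state no pairing, and it was inferred from these data. Deviations from group means of same-numbered P17 libraries correlated at 0.167–0.38 in all 4 pairs. No replicate pair of 36 agreed within sampling noise (chi-square per degree of freedom 2.59–78.6). Named genes were the 9 members, Gfap as a check of labels, up to 3 genes per wider list and comparison (the largest changes with an adjusted p under 0.05, at a mean log2 CPM of 0 or above), and the 10 genes most like the members at a mean log2 CPM of 1 or above. The targeted gene and some genes that the rule names are not reported here. The members and lists were chosen with earlier results of these data known.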

Additional observations from a re-analysis of the deposited data

Results flagged for a closer look

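Of 36 sets of 4 bulk libraries (each of the 9 genes in each group), 2 had a library whose gap to the nearest other exceeded Dixon's 95% critical value for 4 samples, and chance gives about 1 in 20. Flt1 in P17 Ctrl was at 39.5 CPM in the lowest library, with the others at 43.1 to 43.8 CPM, a gap of 0.83 of the range. Slco1a4 in P17 cKO was at 23.9 CPM in the lowest library, with the others at 24.9 to 25.0 CPM, a gap of 0.886 of the range. Neither gene passed between P17 cKO and Ctrl by the edgeR test, with that library or without it.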

How the results depend on the processing

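Among the 9 genes, no call was made at P24, in the Input or in either interaction under any alternative run or with any library left out. Over the single-gene values, other alternatives left direction and side of the threshold as they were in 398 cases, ended the call in 6, made one in 3 and turned the direction in 4, none of which was a called value: Cldn5 in cKO against Ctrl IP (−0.085 with library size alone, −0.0079 with the block), Kdr in the fraction interaction (0.045 with the block) and Abcb1a in the age interaction (0.00059 with library size alone). Leaving out single libraries kept both in 530 cases, ended the call in 15, made one in 3 and turned the direction in 52. The cause was not tested.

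The 1 call among the 9 genes at P17 became 0 in the fit of all 16 libraries and 0 to 1 with a library left out. Among the 9 genes in cKO against Ctrl IP, 0 calls became 1 with no filter, 1 with the replicate block and 0 to 1 with a library left out.

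Counts of all genes called moved more. With DESeq2 they were 598 at P24 (388 in the edgeR test), 41 at P17 (20), 127 in the Input (26), 284 in the fraction interaction (15) and 54 in the age interaction (11). With no filter they were 618, 55, 112, 189 and 62, over more genes tested. In the fit of all 12 TRAP-Seq libraries they were 1684 in the IP (4782) and 127 in the Input. With both P24 replicate 1 libraries left out, the count was 694. The split of the 15 genes of the fraction interaction was 10 higher and 5 lower, and was 5 and 5 with RLE factors, 5 and 7 with library size alone and 99 and 185 with DESeq2.

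With a replicate block, all genes called were 109 at P17, 8 in the Input, 6 in the fraction interaction and 55 in the age interaction. At P24 and between genotypes in the Input, numbers were not shown to pair libraries. Same-numbered deviations correlated at 0.0286–0.218 and −0.0342–0.102, and libraries correlated best with their own number in 2 of 4 and 2 of 3 cases. Between genotypes in the IP they correlated at 0.0355–0.116, with the own number best in 3 of 3 cases, and pairing there was not settled. IP and Input, paired by mouse, gave 0.0686–0.08 (3 of 3 cases) in Ctrl and −0.102–0.122 (1 of 3) in cKO mice, so these correlations are a weak guide. The block gave 410 and 6735 genes at P24 and in the IP, and changed no call among the 9 genes besides Pdgfrb in the IP.

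With 1 library left out, all genes called ranged over 216–950 at P24 (950 without cKO replicate 1), 11–19 at P17, 2633–4810 in the IP, 4–112 in the Input (112 without cKO replicate 1), 3–432 in the fraction interaction (432 without Input cKO replicate 1) and 4–149 in the age interaction (149 without P24 cKO replicate 1). Log2 fold changes that crossed 0 ranged at P24 from −0.13 to 0.051 (Cldn5), −0.035 to 0.24 (Slco1a4), −0.060 to 0.15 (Abcb1a), −0.032 to 0.11 (Pdgfrb) and −0.031 to 0.12 (Kdr). At P17 they ranged from −0.042 to 0.12 (Cldn5), −0.12 to 0.11 (Vwf), −0.10 to 0.049 (Pdgfrb) and −0.039 to 0.13 (Kdr). In cKO against Ctrl IP they ranged from −0.25 to 0.066 (Flt1), −0.32 to 0.25 (Cldn5) and −0.46 to 0.47 (Pecam1), and in the Input from −0.084 to 0.38 (Flt1), −0.15 to 0.014 (Slco1a4), −0.34 to 0.083 (Vwf) and −0.45 to 0.16 (Kdr). In the fraction interaction they ranged from −0.72 to 0.17 (Pecam1) and −0.64 to 0.38 (Kdr), and in the age interaction from −0.17 to 0.0050 (Cldn5), −0.12 to 0.088 (Abcb1a), −0.065 to 0.16 (Vwf), −0.015 to 0.15 (Pdgfrb) and −0.098 to 0.072 (Kdr). Counts of 1 to 56 per TRAP-Seq library limit what could be detected for the 7 genes other than Mfsd2a and Pdgfrb.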

Other observations

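Genes of activated or leaky endothelium, most of which the adult brain vessel carries at low level, were read in the TRAP-Seq libraries. In the Ctrl IP against Input, 3 of 10 genes tested were higher and 6 lower (35.3% and 35.7% of all genes). Vcam1 had 84.7 ± 20.8 CPM in the IP and 6.13 ± 1.63 CPM in the Input (SD, n = 3 each, log2 fold change 3.79, SE 0.218, adjusted p = 3.08e-08 by the edgeR test). Ackr1, a chemokine-binding receptor of venules, had 5.18 ± 0.62 CPM in the IP and 31.9 ± 6.24 CPM in the Input (−2.64, SE 0.169, adjusted p = 7e-08). In cKO against Ctrl IP, 2 of 10 rose and none fell, where 20.0% of all genes passed in either direction. Emp1 went from 1.09 ± 0.37 to 6.99 ± 1.37 CPM (SD, n = 3 each, 2.68, SE 0.258, adjusted p = 0.000135). In Ctrl mice Emp1 was among the genes higher in the IP than in the Input (2.12, SE 0.456, adjusted p = 0.00126), at only 0.66 to 1.35 CPM in the IP. The cells that gave rise to its reads were not tested, so its rise cannot be assigned to endothelial or to other cells.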
